A study of Homo sapiens with 4 samples.

Results

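Chemokines are small secreted proteins that direct cell movement, and the genes described here are 8 human members of that system. They are the receptors CXCR4 and ACKR3 and the ligands CXCL12, CCL2, CXCL14, CXCL5, CXCL16 and CX3CL1. They were chosen by gene symbol from 57905 gene identifiers, after values of the comparison below were known, so their own differences are given as a description and carry no test. Polyadenylated RNA was sequenced from 2 libraries of cells transfected with an siRNA against KLF11 and 2 libraries of cells transfected with a control siRNA, all harvested after 48 hours. The labels give the cells of both groups as MG63, an osteosarcoma line, and name no other allele or agent. Nothing in the labels says that the replicates were grown or transfected separately. The p-values therefore reflect library-to-library spread, part or all of which may be technical.

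A chemokine binds a receptor with a bundle of membrane-spanning helices, which signals through inhibitory G proteins and is then switched off by receptor kinases and arrestins. CXCR4 is the signalling receptor for CXCL12, and ACKR3 is an atypical receptor that takes up CXCL12 without classical G protein signalling. CCL2 attracts monocytes through its receptor CCR2. In bone, CXCL12 made by stromal cells retains blood stem cells, and in differentiating human pluripotent cells CXCR4 is a widely used surface marker of definitive endoderm, the layer that forms gut and liver.

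Values are FPKM, fragments mapped to a gene scaled by its length and by the size of the library, so levels can be set side by side between genes. Log2 changes are on the log2(FPKM + 1) scale, KLF11 siRNA minus control siRNA, which understates the change of low genes, and adjusted p-values are from limma over 15320 genes with a mean of at least 1 FPKM. KLF11 itself, the target of the siRNA, measured 5.49 and 6.74 FPKM in the KLF11 siRNA libraries and 12.3 and 12.4 FPKM in the control siRNA libraries (log2 change -0.92, SE 0.139, adjusted p = 0.00951, limma). The libraries summed to between 577849 and 604498 FPKM, and their read depth is unknown because no counts are given. In the first principal component, with 81.4% of the variance, KLF11 siRNA replicate 2 (-33.8) lay nearer the control libraries (47.6 and 44.4) than replicate 1 did (-58.1).

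The markers of the labelled cell type went against the label in part. The osteoblast genes SP7 and IBSP were at most 0.04 FPKM in any library, and RUNX2, the master regulator of bone cells, measured 0.60 and 0.65 FPKM with KLF11 siRNA and 0.03 and 0.02 FPKM with control siRNA. Other genes of the same list were high in every library, among them the matrix genes SPARC (at least 637 FPKM), FN1 (at least 181 FPKM), COL1A2 (at least 115 FPKM) and COL1A1 (at least 11.9 FPKM), which other mesenchymal cells also express. ALPL, which bone and pluripotent cells both express, measured 106 and 79.2 FPKM with KLF11 siRNA and 101 and 88.9 FPKM with control siRNA. The pluripotency factor POU5F1 measured 1364 and 1068 FPKM with KLF11 siRNA and 186 and 177 FPKM with control siRNA, and the endoderm factor SOX17 measured 19.2 and 47.9 FPKM with KLF11 siRNA and 133 and 131 FPKM with control siRNA. Other genes of these lists were high in every library. Among them were the pluripotency genes TDGF1 (at least 592 FPKM) and LIN28A (at least 284.9 FPKM). The endoderm genes CER1 (at least 958 FPKM) and MIXL1 (at least 207 FPKM) were also high. The pluripotency genes SOX2 and PRDM14 were lower, at most 23.4 and 8.09 FPKM. The cells are therefore called here by their siRNA and not by a cell type. Leukocytes, the main carriers of chemokine receptors, left little trace. The 15 leukocyte markers summed to 2.31 and 3.34 FPKM with KLF11 siRNA and to 2.91 and 3.37 FPKM with control siRNA. Of them 14 were under the filter, as were 42585 of all 57905 identifiers. CD3E, CD3D and CD2 were listed at 0 in every library, and PTPRC, the common leukocyte antigen, reached at most 0.40 FPKM. CD163, the marker past the filter, measured 1.41 and 1.73 FPKM with KLF11 siRNA and 1 and 1.75 FPKM with control siRNA.

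The RefSeq promoter table (build GRCh38.p14) held windows for 4 of the 8 genes, CXCR4, CXCL12, CXCL5 and CXCL14. It lists 3 starts for CXCR4, of which the outermost is shown, while the gene-level FPKM values do not separate starts. The 250 bases upstream of the start are printed for the receptor CXCR4, which was lower with KLF11 siRNA, and for CXCL12 and CXCL14, which were both higher. Capitals mark matches, on either strand, to the GC box GGGCGG and the CACCC box, which SP and KLF factors are known to bind, to GGAATG, the core that TEAD factors bind, and to the AP-1 site TGACTCA.

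CXCR4 (chr2:136118150-136118399, minus strand): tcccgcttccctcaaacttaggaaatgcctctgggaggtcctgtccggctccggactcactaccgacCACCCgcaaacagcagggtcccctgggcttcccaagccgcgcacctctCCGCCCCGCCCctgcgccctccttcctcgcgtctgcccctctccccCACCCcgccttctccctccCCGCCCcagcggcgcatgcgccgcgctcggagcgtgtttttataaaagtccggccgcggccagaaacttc

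CXCL12 (chr10:44385098-44385347, minus strand): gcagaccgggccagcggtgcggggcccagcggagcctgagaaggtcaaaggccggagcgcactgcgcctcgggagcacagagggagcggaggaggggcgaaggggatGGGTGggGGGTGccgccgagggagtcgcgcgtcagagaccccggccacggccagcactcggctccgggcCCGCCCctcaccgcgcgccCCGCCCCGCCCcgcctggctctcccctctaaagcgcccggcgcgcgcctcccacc

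CXCL14 (chr5:135578992-135579241, minus strand): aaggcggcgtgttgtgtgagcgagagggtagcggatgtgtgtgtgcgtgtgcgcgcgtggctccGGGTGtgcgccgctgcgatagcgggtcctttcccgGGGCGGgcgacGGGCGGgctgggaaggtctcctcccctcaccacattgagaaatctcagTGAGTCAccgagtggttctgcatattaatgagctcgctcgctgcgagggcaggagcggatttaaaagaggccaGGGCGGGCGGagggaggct

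The CXCR4 window held 3 GC boxes and 2 CACCC boxes, as did the CXCL12 window, and in each of these windows 2 of the GC boxes share a base. The CXCL14 window held 4 GC boxes, of which 2 overlap, 1 CACCC box and 1 AP-1 site. None of the 3 windows held GGAATG. The window of CXCL5 held 1 CACCC box and no other match. Of 35116 promoter windows of the same length, 42.6% held a GC box, 54.7% a CACCC box, 11.9% GGAATG and 4.2% the AP-1 site. The GC content was 68% in the CXCR4 window, 78% in that of CXCL12 and 64.4% in that of CXCL14, against a median of 58% over all windows. The CXCR4 windows not shown held 0 and 1 GC boxes and 2 and 3 CACCC boxes. Their GC content was 55.6% and 51.6%, so the counts above hold for the outermost start only. A match of letters is not a bound site, and KLF11 binding was not measured here.

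CXCR4 measured 4.25 and 30.4 FPKM in the KLF11 siRNA libraries and 66.3 and 69.8 FPKM in the control siRNA libraries. Both KLF11 siRNA libraries were lower than both controls, but replicate 1 stood at 6.25% of the control mean and replicate 2 at 44.7%. The means were 17.3 ± 18.5 FPKM with KLF11 siRNA and 68.0 ± 2.46 FPKM with control siRNA (SD, n = 2 each), and the log2 change was -2.43 with an SE of 0.80. The KLF11 siRNA libraries differed from each other 7.15-fold, and 99.8% of tested genes had a smaller gap between these libraries on the log2 scale. The control libraries differed by 0.0728 on the same scale. In bulk RNA, fewer cells that carry a transcript and less of it per cell cannot be told apart.

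ACKR3, the scavenging receptor, measured 4.89 and 19.2 FPKM with KLF11 siRNA and 47.5 and 41.6 FPKM with control siRNA. As for CXCR4, replicate 1 was the lower of the KLF11 siRNA libraries, at 11% of the control mean, and replicate 2 stood at 43.1%. Its log2 change was -2.06 (SE 0.56). The ratio of CXCR4 to ACKR3 was 0.869 and 1.58 in the KLF11 siRNA libraries and 1.40 and 1.68 in the control libraries, so replicate 1 was lowest and replicate 2 lay within the control range. Together the listed receptors, classical and atypical, summed to 13.9 and 53.6 FPKM with KLF11 siRNA and to 116 and 114 FPKM with control siRNA. CXCR4 and ACKR3 made up most of that sum in every library.

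CCL2, the monocyte chemoattractant, measured 2.13 and 7.44 FPKM in the KLF11 siRNA libraries and 62.6 and 62.8 FPKM in the control siRNA libraries. The KLF11 siRNA libraries stood at 3.40% and 11.9% of the control mean, far below both controls. The log2 change was -3.63 (SE 0.45), and 11 of the 15320 tested genes had a lower one. Its receptor CCR2 was at most 0.02 FPKM in any library.

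CXCL12, the ligand of both CXCR4 and ACKR3, differed in the other direction. It measured 17.8 and 13.1 FPKM with KLF11 siRNA and 4.47 and 4.28 FPKM with control siRNA. Both KLF11 siRNA libraries were higher than both controls, at 408% and 299% of the control mean, and the log2 change was 1.60 (SE 0.175). CXCL14, a chemokine of epithelia and stroma, measured 19.5 and 13.6 FPKM with KLF11 siRNA and 3.98 and 4.57 FPKM with control siRNA. As for CXCL12, replicate 1 was the higher of the KLF11 siRNA libraries and both lay above the controls. Its log2 change was 1.71 (SE 0.198). The ratio of CXCL14 to CXCL12 stayed near 1, at 1.09 and 1.04 with KLF11 siRNA and 0.89 and 1.07 with control siRNA.

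CXCL5, CXCL16 and CX3CL1 were under 1 FPKM in every library and were not tested. CXCL5, a neutrophil attractant, was listed at 0.61 FPKM in both KLF11 siRNA libraries and 0.80 FPKM in both control siRNA libraries. CXCL16, a membrane-bound chemokine, measured 0.44 and 0.45 FPKM with KLF11 siRNA and 0.16 and 0.34 FPKM with control siRNA. CX3CL1, the membrane-bound fractalkine, was listed at 0.15 FPKM in both KLF11 siRNA libraries and at 0.09 and 0.08 FPKM with control siRNA. Without read counts, the counting error of such low values is unknown, and no fold is drawn from them. CXCR2, the receptor of CXCL5, reached at most 0.30 FPKM, CXCR6, that of CXCL16, at most 0.08 FPKM, and CX3CR1, that of CX3CL1, at most 0.04 FPKM.

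**Figure D1:**
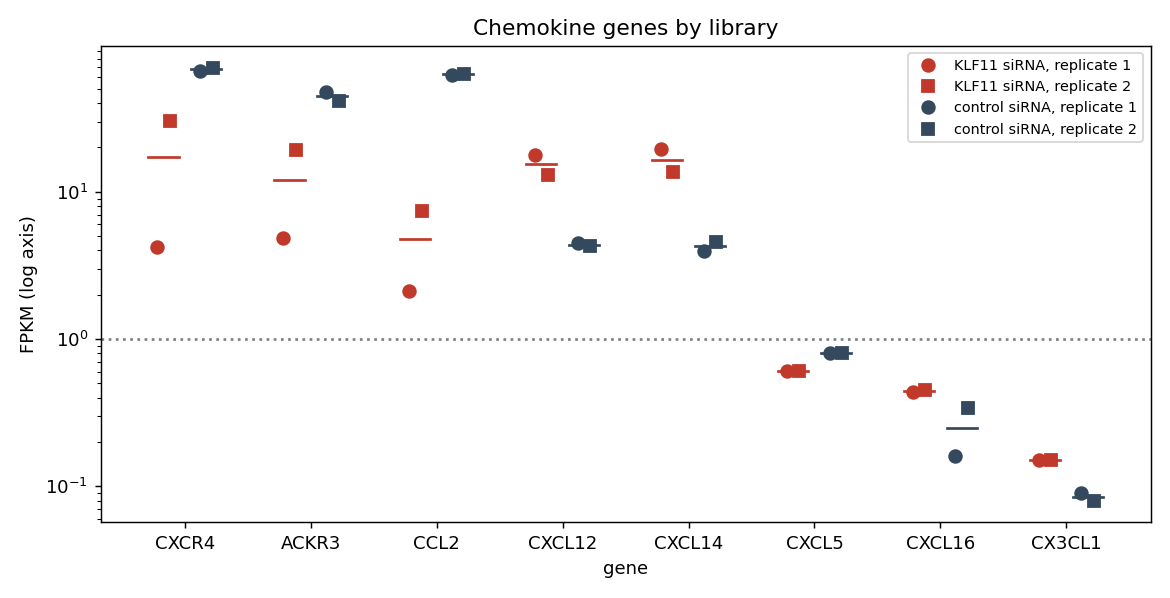
FPKM of the 8 chemokine genes (log axis) in each library, with KLF11 siRNA in red left of control siRNA in dark blue; circles are replicate 1, squares replicate 2 and short bars the group means, and the dotted line marks 1 FPKM. CXCR4, ACKR3 and CCL2 are lower and CXCL12 and CXCL14 higher in both KLF11 siRNA libraries, and CXCR4 shows the widest gap between them (4.25 and 30.4 FPKM).

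Of the 5 tested genes, all but CXCR4 had an adjusted p under 0.05 in limma. The background was 35.2% of all tested genes (13.5% higher and 21.7% lower), and because the genes were chosen on this comparison, nothing is read from their count. Over the whole fit the log2 change had a median of -0.11, and the directions of all 5 were kept under every scaling tried. For each of the 5, the KLF11 siRNA values lay wholly above or wholly below the control siRNA values, against a background of 73.4% of tested genes (28.9% higher and 44.5% lower), and nothing is read from that count either. Without control siRNA replicate 1 or 2, none of the 5 passed (3 had an unadjusted p under 0.05 each time), and the calls over all genes shrank from 2071 higher and 3329 lower to 15 and 4 or to 9 and 2. With KLF11 siRNA replicate 1 or 2 left out, all 5 passed, CXCR4 with a log2 change of -1.14 or -3.72, but the spread then rests on the control pair alone.

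The order of levels differed between the groups. In the KLF11 siRNA libraries the mean levels ran CXCR4 17.3, CXCL14 16.5, CXCL12 15.4, ACKR3 12 and CCL2 4.79 FPKM, and each neighbouring pair in that order overlapped in range. Neither library held that order. CXCR4 was below CXCL14, CXCL12 and ACKR3 in replicate 1 (4.25 FPKM) and above all of these genes in replicate 2 (30.4 FPKM). In the control siRNA libraries the means ran CXCR4 68.0, CCL2 62.7, ACKR3 44.6, CXCL12 4.38 and CXCL14 4.28 FPKM, where the ranges of CXCL12 and CXCL14 overlapped. CXCR4 exceeded 66.0% of tested genes by its KLF11 siRNA mean and 91.1% by its control siRNA mean. For CXCL12 the shares were 62.5% with KLF11 siRNA and 28.5% with control siRNA.

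The balance of ligand to receptor transcripts within a library followed from these levels. CXCL12 was 4.20 times and 0.43 times the level of CXCR4 in KLF11 siRNA replicates 1 and 2, and 0.0674 and 0.0613 times in the control siRNA libraries. In replicate 1 the ligand's transcript was the higher of the pair, and in the other 3 libraries the receptor's was. CCL2 made up 4.49% and 18.2% of the summed FPKM of the listed ligands that have a row with KLF11 siRNA. With control siRNA its share was 79.5% and 78.5%. CCL3, CCL4, CCL5 and further CC ligands had no row, so these shares and sums leave them out. CXCL12 and CXCL14 together with CCL2 held most of the ligand sum, which was 47.4 and 41.0 FPKM with KLF11 siRNA and 78.8 and 80 FPKM with control siRNA.

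**Figure D2:**
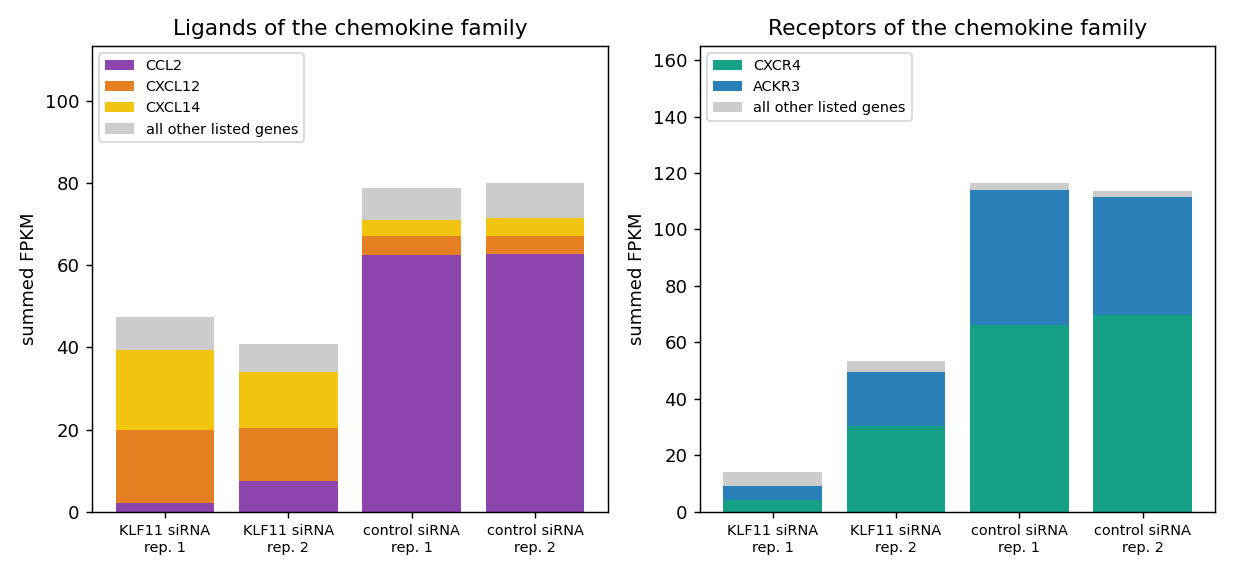
Summed FPKM of the listed chemokine ligands (left) and receptors (right) that have a row. Each library is 1 stacked bar, with KLF11 siRNA left of control siRNA. CCL2 fills most of the ligand bar of the control siRNA libraries, CXCL12 and CXCL14 most of it with KLF11 siRNA, and the receptor sum is 13.9 and 53.6 FPKM with KLF11 siRNA against 116 and 114 FPKM with control siRNA.

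Most of the listed chemokine family was under the filter in these cells, as were most identifiers. Of 60 listed ligand and receptor genes with a row in the table, 7 passed the filter and 17 were listed at 0 in all 4 libraries. Of all 57905 identifiers, 42585 were under the filter and 23673 were listed at 0, so little is read from these counts. The highest single value among the 53 listed genes under the filter was 1.39 FPKM, for CCL28. In limma 3 of the 7 rose and 2 fell, with a median log2 change of 0.19. The share called was 71.4%, against 35.2% of all tested genes, but 5 of the 7 are the genes chosen on this comparison. Apart from the 5 described above, CXCR5 and CCL26 were tested. CXCR5, the B cell follicle receptor, was at 2.77 and 1.53 FPKM with KLF11 siRNA and listed at 0 in both control siRNA libraries. It passed the filter only through the group where it was present, so the filter fixed the direction of its difference. CCL26, an eosinophil attractant, did not pass, with 3.25 and 1.74 FPKM in KLF11 siRNA libraries and 1.79 and 2.20 FPKM in control siRNA libraries (adjusted p = 0.60). The atypical receptor ACKR2 was under the filter, at 0.57 and 0.53 FPKM with KLF11 siRNA and 1.03 and 0.91 FPKM with control siRNA.

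The gap between the KLF11 siRNA libraries had the same direction in most genes. Replicate 2 lay nearer the control mean than replicate 1 for 66.9% of all tested genes, 79.0% of the genes called lower and 79.1% of those called higher. Taken gene by gene, its difference as a share of that of replicate 1 had a median of 0.72 over all tested genes. This median was 0.792 among the genes called lower and 0.812 among those called higher. A call favours genes whose libraries agree, so the called sets are no neutral reference. The same share was 0.306 for CXCR4, 0.397 for ACKR3 and 0.671 for CCL2, and it was 0.768 for CXCL12 and 0.747 for CXCL14. The knockdown differed in the same order, with KLF11 at 5.49 FPKM in replicate 1 and 6.74 FPKM in replicate 2. Its part in the gap was not tested.

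**Figure D3:**
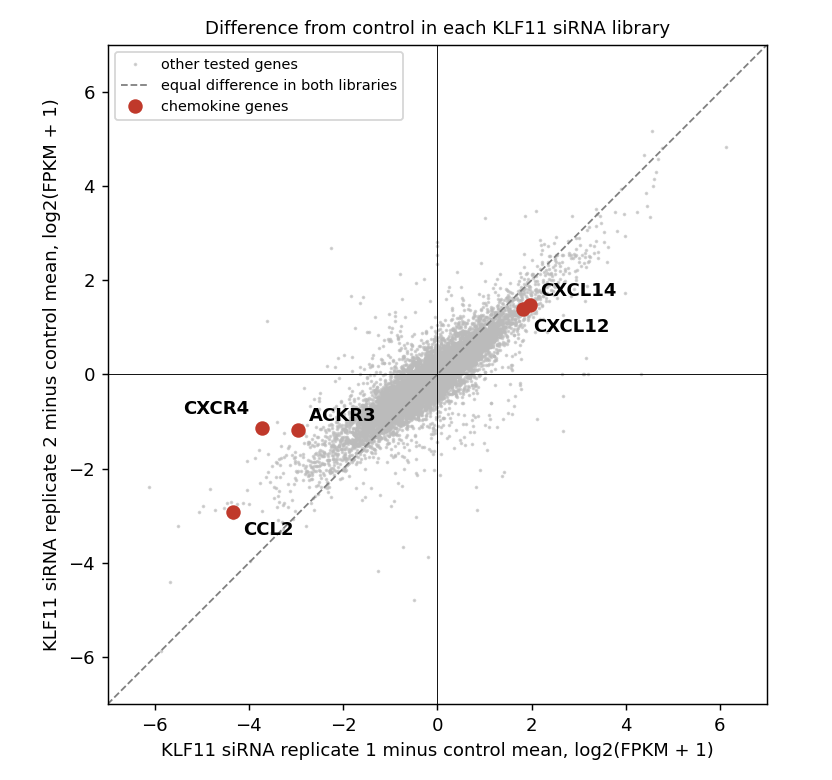
Difference from the control siRNA mean on the log2(FPKM + 1) scale in KLF11 siRNA replicate 1 (horizontal) and replicate 2 (vertical) for all tested genes in grey and the 5 tested chemokine genes in red; the dashed line marks equal differences. CXCR4 (-3.72 and -1.14), ACKR3 (-2.95 and -1.17) and CCL2 (-4.35 and -2.92) lie above the dashed line. CXCL12 and CXCL14 lie nearer to it, but 81.1% and 85.8% of tested genes had a smaller gap between these libraries.

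Since CXCR4 marks definitive endoderm, markers of that layer were set beside it. Of 11 tested markers, 6 fell (SOX17, FOXA2, KIT, GATA4, GATA6 and HHEX), 2 rose (EOMES and MIXL1) and 3 did not pass, with a median log2 change of -1.66. The share called was 72.7%, against 35.2% of all tested genes. The rises were lost with no filter, with quantile normalization, without a variance trend and without KLF11 siRNA replicate 2 (0 rose in limma, 2 at an unadjusted p under 0.05). With no filter KIT was the 1 marker that fell, against 9 lower at that p. Without control siRNA replicate 1 or 2, none rose or fell in limma, and 6 or 5 were lower and 0 higher at that p. GATA4, an endoderm and heart factor, measured 12.2 and 28.3 FPKM with KLF11 siRNA and 108 and 104 FPKM with control siRNA. KIT, a receptor used with CXCR4 to sort endoderm, measured 9.76 and 12.6 FPKM with KLF11 siRNA and 47.5 and 48.9 FPKM with control siRNA. Of the 9 markers with a negative log2 change, each was lower in replicate 1 than in replicate 2, with ratios of replicate 2 to replicate 1 between 1.29 for KIT and 3.19 for HHEX. The ratios of CXCR4 (7.15), ACKR3 (3.93) and CCL2 (3.49) were above that range. EPCAM, an epithelial adhesion protein, measured 60.7 and 95.5 FPKM with KLF11 siRNA and 346 and 352 FPKM with control siRNA (adjusted p = 0.00436, limma). The list summed to 1628 and 3535 FPKM with KLF11 siRNA and to 5557 and 5547 FPKM with control siRNA. Most of each sum was CER1, which did not pass (adjusted p = 0.0543, limma). CER1 measured 958 and 2574 FPKM with KLF11 siRNA and 4430 and 4406 FPKM with control siRNA. The part of the list in the levels of CXCR4 was not tested.

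**Figure D4:**
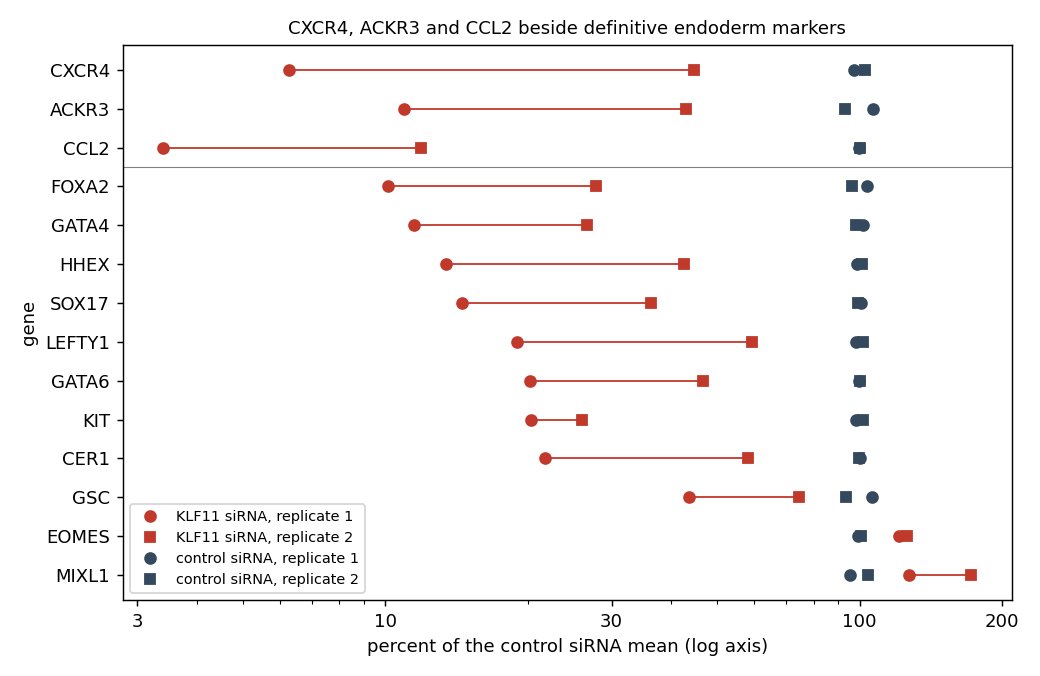
Level of CXCR4, ACKR3, CCL2 and 11 definitive endoderm markers in each library as a percentage of the control siRNA mean (log axis), with KLF11 siRNA in red and control siRNA in dark blue; circles are replicate 1 and squares replicate 2. The markers from FOXA2 to GSC lie below the controls in both KLF11 siRNA libraries and lowest in replicate 1, as CXCR4 does, while EOMES and MIXL1 lie above.

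CXCL12 is a product of stromal cells, so mesenchymal and bone markers are given beside it. Of 9 tested markers, 4 rose (THY1, VIM, CDH11 and TNFRSF11B) and 1 fell (COL1A1). The share called was 55.6%, against 35.2% of all tested genes. Without control siRNA replicate 1, 2 rose and 0 fell in limma, and without control siRNA replicate 2 none passed (4 higher and 1 lower at an unadjusted p under 0.05 each time). VIM, an intermediate filament of mesenchymal cells, measured 808 and 800 FPKM with KLF11 siRNA and 144 and 131 FPKM with control siRNA. The stromal genes LUM and DCN were at most 0.65 FPKM in any library. The list summed to 2104 and 2081 FPKM with KLF11 siRNA and to 1313 and 1239 FPKM with control siRNA. VIM had the largest rise in FPKM within that list. The part of the list in the levels of CXCL12 was not tested. Of 10 tested pluripotency markers, 6 rose and 1 fell (70% called, median log2 change 0.61). NANOG, among the rises, measured 162 and 95.9 FPKM with KLF11 siRNA and 33.9 and 30.4 FPKM with control siRNA. The part of these markers in the levels of CXCL12 was not tested either. Of 4 tested endothelial markers, VWF fell, a call lost in limma without either control siRNA library. ESAM and TEK were higher with KLF11 siRNA but passed the filter only through those libraries, so the filter fixed the direction of their difference. With ESAM and TEK counted, 75% of the endothelial list was called, against 35.2% of all tested genes. CDH5, which defines the endothelial cell type, was at most 0.68 FPKM.

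The genes whose profile lay nearest to each chemokine gene were found by Euclidean distance of log2(FPKM + 1) minus the control mean over the 4 libraries, among genes with a mean of at least 5 FPKM. Nearest to CXCR4 were AC008440.2 (distance 0.37), STC1 (0.473) and ERBB4 (0.491). STC1, which encodes the hormone stanniocalcin, measured 4.06 and 22.0 FPKM with KLF11 siRNA and 65.8 and 72.2 FPKM with control siRNA. Nearest to ACKR3 were LTBP4 (0.127), RHOBTB3 (0.202) and HSD17B14 (0.213), and nearest to CCL2 were S100A16 (0.152), FAM184A (0.216) and AC084816.1 (0.217). HHLA1 (0.0109), SNHG14 (0.0789) and SERPINE2 (0.0873) were nearest to CXCL12, and SLC25A14 (0.0978), DSE (0.103) and SC5D (0.116) to CXCL14. With 4 libraries in 2 groups, many genes share such a profile, and the distance describes only the profile.

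Downstream of the receptors, genes that couple or silence them moved both ways. Of 26 tested genes for receptor coupling and desensitisation, 3 rose and 7 fell, with a median log2 change of -0.25, and 16 did not pass. The share called was 38.5%, near the 35.2% of all tested genes, against which the shares of the lists below are also to be read. GNAI1, an inhibitory G protein alpha subunit through which CXCR4 signals, measured 7.10 and 7.78 FPKM with KLF11 siRNA and 14.9 and 13.9 FPKM with control siRNA (log2 change -0.87, adjusted p = 0.0076, limma). GNG2, a gamma subunit, fell by 1.26 on the log2 scale, to 5.06 and 4.33 FPKM with KLF11 siRNA against 12.6 and 12.6 FPKM with control siRNA. ARRB1, an arrestin that uncouples receptors, rose to 105 and 115 FPKM with KLF11 siRNA against 72.3 and 66.4 FPKM with control siRNA. GNG12, another gamma subunit, rose with a log2 change of 0.72, and RAC1, a GTPase of cell movement, was the third rise. With KLF11 siRNA replicate 1 left out, 3 of these genes rose and 3 fell, and with median-of-ratios scaling 4 rose and 4 fell.

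RGS proteins shorten the signal of inhibitory G proteins, and of 10 tested 2 rose and 4 fell (median log2 change -0.35, 60% called). RGS14, RGS16 and RGS19 were 3 of the falls. The other, RGS4, measured 0.25 and 0.83 FPKM with KLF11 siRNA and 5.59 and 6.07 FPKM with control siRNA. It passed the filter only through the control siRNA libraries, so the filter fixed the direction of its difference. RGS2 rose to 10.1 and 9.56 FPKM with KLF11 siRNA against 4.87 and 5.29 FPKM with control siRNA, and RGS20 rose with a log2 change of 1.24.

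Among proteases and cofactors that act on chemokines, MMP2 stood out in size. Of 12 tested, 3 rose and 2 fell, with a median log2 change of -0.07 and 41.7% called. MMP2, a gelatinase that can cleave CXCL12, measured 161 and 91.5 FPKM with KLF11 siRNA and 16.3 and 12.5 FPKM with control siRNA (8.77-fold higher in the means, adjusted p = 0.0041, limma). HMGB1, which can bind CXCL12, and the proteoglycan SDC1 rose with log2 changes of 0.41 and 0.55. ADAM17, which sheds CX3CL1 and CXCL16, fell by 0.53 on the log2 scale, and the proteoglycan HSPG2 fell by 0.89. MIF, an alternative ligand of CXCR4, did not pass, at 339 and 407 FPKM with KLF11 siRNA and 399 and 367 FPKM with control siRNA (adjusted p = 0.80, limma). With KLF11 siRNA replicate 1 left out, 1 of these genes rose and 0 fell in limma (3 and 2 at an unadjusted p under 0.05).

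Heparan sulfate chains hold chemokines at the cell surface, and of 15 tested genes that build or trim them 3 rose and 3 fell (median log2 change 0.06, 40% called). SULF1, which removes sulfate from the chains outside the cell, rose to 9.18 and 11.4 FPKM with KLF11 siRNA against 2.45 and 2.80 FPKM with control siRNA (log2 change 1.63, adjusted p = 0.0045, limma). Its relative SULF2 fell to 57.5 and 79.8 FPKM with KLF11 siRNA against 104 and 106 FPKM with control siRNA. EXT1, which extends the chain, also rose, and GLCE and HS6ST1 fell. The third gene counted as a rise, the sulfotransferase HS6ST2, passed the filter only through the KLF11 siRNA libraries. The filter therefore fixed the direction of its difference. With median-of-ratios scaling 5 rose and 2 fell.

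Of 18 factors known to act on transcription of CXCR4 or CCL2, 4 rose and 4 fell, with a median log2 change of 0.13 and 44.4% called, against 35.2% of all tested genes. STAT3, a cytokine-driven factor, rose to 38.0 and 36.4 FPKM with KLF11 siRNA against 14.5 and 14.1 FPKM with control siRNA (log2 change 1.32, adjusted p = 0.00246, limma). FOS was another rise. TWIST1, at 14.1 and 8.01 FPKM with KLF11 siRNA against 1.08 and 0.79 FPKM with control siRNA, and EPAS1 are the remaining 2 counted as rises, but their control means were under 1 FPKM. Both passed the filter only through the KLF11 siRNA libraries, so the filter fixed the direction of their difference. It does not by itself make a call. DPP4 and CD74, of the protease and cofactor list, passed the filter only through the control siRNA libraries and were not called. NFKBIA, the inhibitor and target of NF-kappaB, fell to 22.9 and 36.8 FPKM with KLF11 siRNA against 102 and 96.7 FPKM with control siRNA, and RELA and SOX17 also fell. HIF1A, an inducer of CXCR4, did not pass, at 110 and 110 FPKM with KLF11 siRNA and 124 and 130 FPKM with control siRNA (adjusted p = 0.0909, limma). With control siRNA replicate 1 left out, no gene of these 5 lists passed in limma, while 14 were higher and 13 lower at an unadjusted p under 0.05. With control siRNA replicate 2 left out, again none passed, and 14 were higher and 16 lower at that p.

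**Figure D5:**
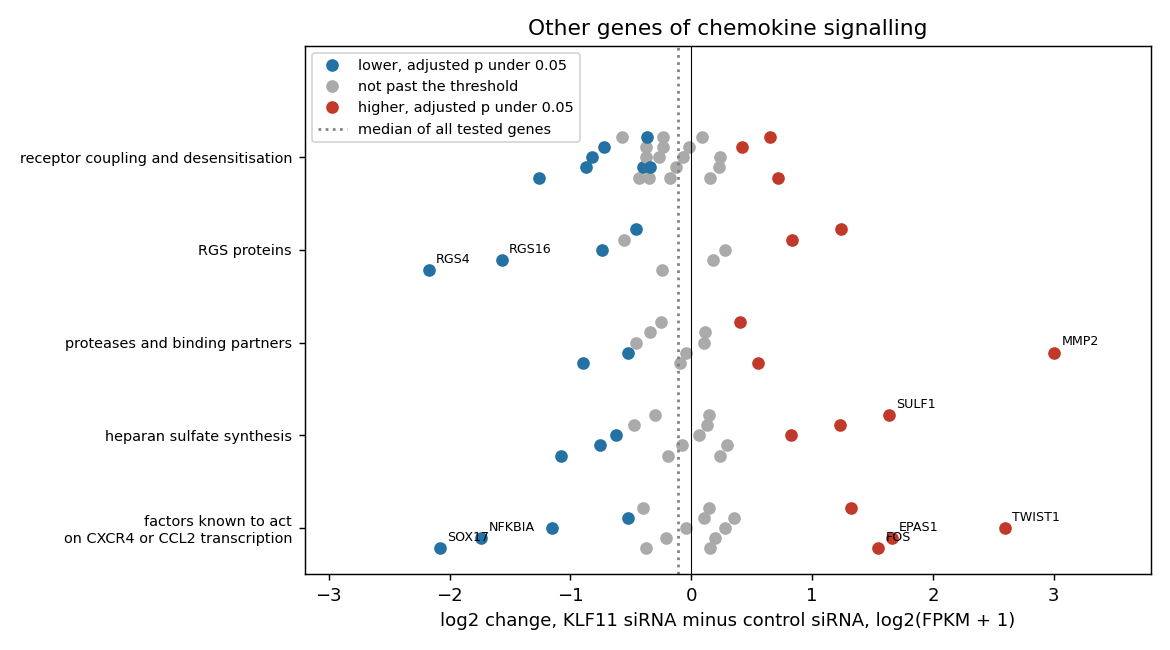
Log2 change, KLF11 siRNA minus control siRNA on the log2(FPKM + 1) scale, of each tested gene in 5 lists around chemokine signalling, coloured by the limma call at an adjusted p of 0.05; genes beyond 1.5 in size are named, and the vertical spread within a list has no meaning. MMP2 and TWIST1 lie farthest to the right and RGS4 and SOX17 farthest to the left, and the dotted line is the median of all tested genes (-0.11).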

How the data were processed

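The authors deposited a single table of FPKM values, rounded to 2 decimals. The tools named in the submitters' processing notes are RSEM 1.3.1 and Trim Galore 0.5.0, with the build hg19 (GRCh37). For the aligner, the annotation release and the strand setting, the sources used here give nothing. FPKM depends on all other genes of a library, so abundant genes that change can shift the rest. Every value column was matched to a sample by name, and groups came from sample titles. The 8 genes and all lists were chosen with earlier results of these data known. Symbols are those of the table, and the identifiers of all 8 genes matched an Ensembl name table. No coordinates of the files' build are given.

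Genes with a mean of at least 1 FPKM were fitted with limma 3.58.1 in R 4.3.3 (trend, no block) on log2(FPKM + 1), two-sided, with Benjamini-Hochberg adjustment over all tested genes and a threshold of 0.05. The smallest p of an exact permutation test is 0.333 with 2 libraries a group, so none was run. Tested on simulated data with each gene's fitted spread, the fit called more false genes than the nominal rate. With the observed spreads shuffled over genes, a check that recovered too few changed genes for the limit first set, it missed more of them and made fewer false calls. Few genes were changed in these simulations, against 35.2% called here, so their rates need not carry over to these calls. Named genes are the 8, KLF11, every tested ligand and receptor, up to 4 genes with the smallest p of each other list, the 3 nearest profiles, and further genes named after their values were seen (RAC1, RGS16, RGS19, ADAM17, MIF, SULF2, HS6ST1, NFKBIA, RELA, HIF1A, EPAS1 and markers). Listed genes without a row were not analysed here. A gene that the rule selects is not reported here. The alternatives were other pseudocounts, filters, scalings and variance models, a replicate block, and each library left out. Figures were drawn with matplotlib 3.10.9.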

Additional observations from a re-analysis of the deposited data

How the results depend on the processing

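The signs of the log2 changes of the 5 tested chemokine genes were the same in every setting tried. With a pseudocount of 5 the log2 change was -2.85 for CCL2, 1.12 for CXCL12 and 1.20 for CXCL14, which follows from the larger constant. With 1 library left out it ran from -3.72 to -1.14 for CXCR4, -2.95 to -1.17 for ACKR3, -4.35 to -2.92 for CCL2, 1.39 to 1.81 for CXCL12 and 1.47 to 1.96 for CXCL14. CXCR4 passed with a pseudocount of 5 and ACKR3 did not with no filter or without a variance trend. With no filter 887 genes were higher and 1251 lower, over 34232 genes tested, and 1 listed ligand or receptor was lower. Without a variance trend that last count was also 1. With 1 library left out, between 9 and 2325 genes were higher and between 2 and 3943 lower, and among the listed ligands and receptors between 0 and 2 were higher and between 0 and 3 lower. The counts near 0 are those without a control siRNA library, in limma, where 3 of the listed genes were higher and 1 lower at an unadjusted p under 0.05.

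Median-of-ratios scaling brought the median log2 change over the whole fit to just above 0, against -0.11, with 2757 genes higher and 2605 lower against 2071 and 3329. The labels give both groups replicates 1 and 2 without saying what they share, and same-numbered libraries did not deviate together (correlation -0.0711 across genes). With the replicate block 1707 genes were higher and 2644 lower, 3 of the listed ligands and receptors were higher and 3 lower, CXCR4 among them. In the fit reported, the 5 pathway lists held 15 higher and 20 lower genes, against 18 and 13 with median-of-ratios scaling and 9 and 6 with no filter. Read depth is unknown, so the precision of the low values of CXCL5, CXCL16 and CX3CL1 cannot be given.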
